A study of Mus musculus with 18 samples.

Results

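The core genes of the Notch pathway were followed in cultured mouse aortic smooth muscle cells in which the integrin αV gene Itgav had been silenced. The 10 members, chosen by name, were 3 receptors (Notch1, Notch2, Notch3), 2 ligands (Jag1, Jag2), the DNA-binding factor Rbpj and 4 target genes (Hes1, Hey1, Hey2, Heyl), out of 57180 genes in the table. Smooth muscle cells were taken from the thoracic aorta of C57BL/6 mice, transfected with RNA and sequenced in bulk. The 18 libraries fell into 6 groups of 3: cells transfected with Itgav silencing RNA (siRNA) and treated with TGF-β, treated with PDGFBB or left unstimulated, and cells given a scrambled control RNA in the same 3 conditions. All groups therefore carry a transfected RNA. Animal age and sex, the doses and times, the number of siRNA sequences and the relation of libraries to animals or cultures are all missing from the sources used here. The spread between libraries may thus be technical, and p-values measure that spread only. In bulk RNA, a change in the share of a cell type cannot be told apart from a change in RNA per cell.

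Notch receptors are membrane proteins that are activated by Jagged or Delta ligands on a neighbouring cell. Shedding by ADAM proteases and cleavage by γ-secretase then free the intracellular domain, which enters the nucleus, joins RBPJ and Mastermind proteins and switches on HES and HEY genes, themselves transcriptional repressors. In the vessel wall, NOTCH3 and NOTCH2 are the receptors best known in smooth muscle cells, and JAG1 signalling is known to promote their contractile state. TGF-β and PDGFBB are classical regulators of that state, the first promoting contractile genes and the second opposing them.

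Each library held 17705072 to 21592916 estimated counts. Itgav itself had 26.1, 29.7 and 25.3 CPM, library-scaled counts that do not correct for gene length, in siRNA cells with TGF-β, against 548, 553 and 472 CPM in scramble cells with TGF-β. With PDGFBB it had 19.1, 23.9 and 25.5 CPM in siRNA cells, against 307, 336 and 319 CPM in scramble cells. Unstimulated siRNA cells had 14.8, 14.1 and 16.4 CPM, against 300, 326 and 323 CPM in unstimulated scramble cells, so the targeted transcript was low in all 9 siRNA libraries. The 8 smooth muscle markers summed to between 1280 and 11500 CPM per library and none was at 0. The 11 endothelial markers summed to 86.7 to 144 CPM, the 6 adventitial fibroblast markers to 32.1 to 149 CPM, the 5 mesothelial markers to 25.2 to 219 CPM and the 7 macrophage markers to 7.41 to 20.6 CPM. Interferon response genes moved with the siRNA: 25 of 25 were higher in siRNA cells in every medium, with sums of 1410 to 1450 CPM with TGF-β, 5800 to 8470 CPM with PDGFBB and 9040 to 10400 CPM unstimulated, against 234 to 282, 332 to 377 and 331 to 693 CPM in scramble cells of the same media. Cell cycle genes moved with TGF-β and with the siRNA. With TGF-β, 22 of 24 were lower in siRNA cells and 23 in scramble cells, where sums were 644 to 705 CPM with TGF-β against 1450 to 1510 CPM unstimulated. With the siRNA, 19 were lower in PDGFBB cells and 19 in unstimulated cells, where sums were 1060 to 1210 CPM in siRNA cells, and in TGF-β cells 5 were higher and 2 lower, so that 18 had a higher siRNA effect with TGF-β than unstimulated. With PDGFBB, 10 were lower in siRNA cells and 15 in scramble cells. These counts are read against the shares of all genes called, given below for each comparison. The part of these shifts in the results on Notch genes was not tested.

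Among the 10 members, TGF-β lowered Rbpj, Notch1, Notch3 and Jag2 and raised Notch2 and Hey1, and Heyl was highest in TGF-β cells, while PDGFBB lowered Jag1, Hes1, Hey1 and Hey2, in siRNA and in scramble cells. The Notch2 calls with TGF-β in both RNAs, and the Hey1 call in scramble cells, were lost on leaving out certain single libraries. The falls of Jag2 with TGF-β and of Hey1 with PDGFBB rest on few counts, 4 to 14 and 2 to 6 per library in those media. Itgav siRNA raised Notch1 and Notch2 and lowered Notch3 and Hey2 in all 3 media. All 10 members passed the filter on low counts, Heyl only through the TGF-β libraries. Heyl therefore had to differ between TGF-β and the other media, and its differences between TGF-β and unstimulated cells are given as a description with no p. A gene was called where the quasi-likelihood test of edgeR gave a p under 0.05 after Benjamini-Hochberg adjustment over 15832 genes.

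The share of all tested genes called was large in every comparison, so a count of members called is read against it. With TGF-β in siRNA cells, 5 members were higher and 4 lower, against a background of 57.5% called, 27.9% higher and 29.6% lower. With TGF-β in scramble cells, 4 members were higher, 5 lower and 1 not called, where 48.3% of all genes were called, 23.4% higher and 24.8% lower. With PDGFBB in siRNA cells, 1 member was higher and 4 lower, and the background was 36.4%, with 17.2% higher and 19.2% lower. With PDGFBB in scramble cells, 2 members were higher and 4 lower, and the background was 36.1%, with 16.9% higher and 19.2% lower. The siRNA in TGF-β cells raised 4 members and lowered 3, against 48.4% of genes called, 24.1% higher and 24.3% lower. In PDGFBB cells it raised 2 and lowered 4, against 59.3%, 29.4% and 29.9%. In unstimulated cells it raised 2 and lowered 5, against 53.4%, 25.9% and 27.5%. The members' median log2 fold change lay between -0.44 (PDGFBB in scramble cells) and 0.07 (TGF-β in siRNA cells), and the median over all genes between -0.02 and 0.01. These counts and medians include Heyl. Without it, the members higher with TGF-β were 4 in siRNA cells and 3 in scramble cells, the siRNA raised 3 in TGF-β cells, and the medians lay between -0.39 (TGF-β in scramble cells) and 0.01 (PDGFBB in siRNA cells). The 3 scramble and 3 siRNA groups each enter several of these comparisons, so comparisons that share a group are not independent of each other.

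**Figure D1:**
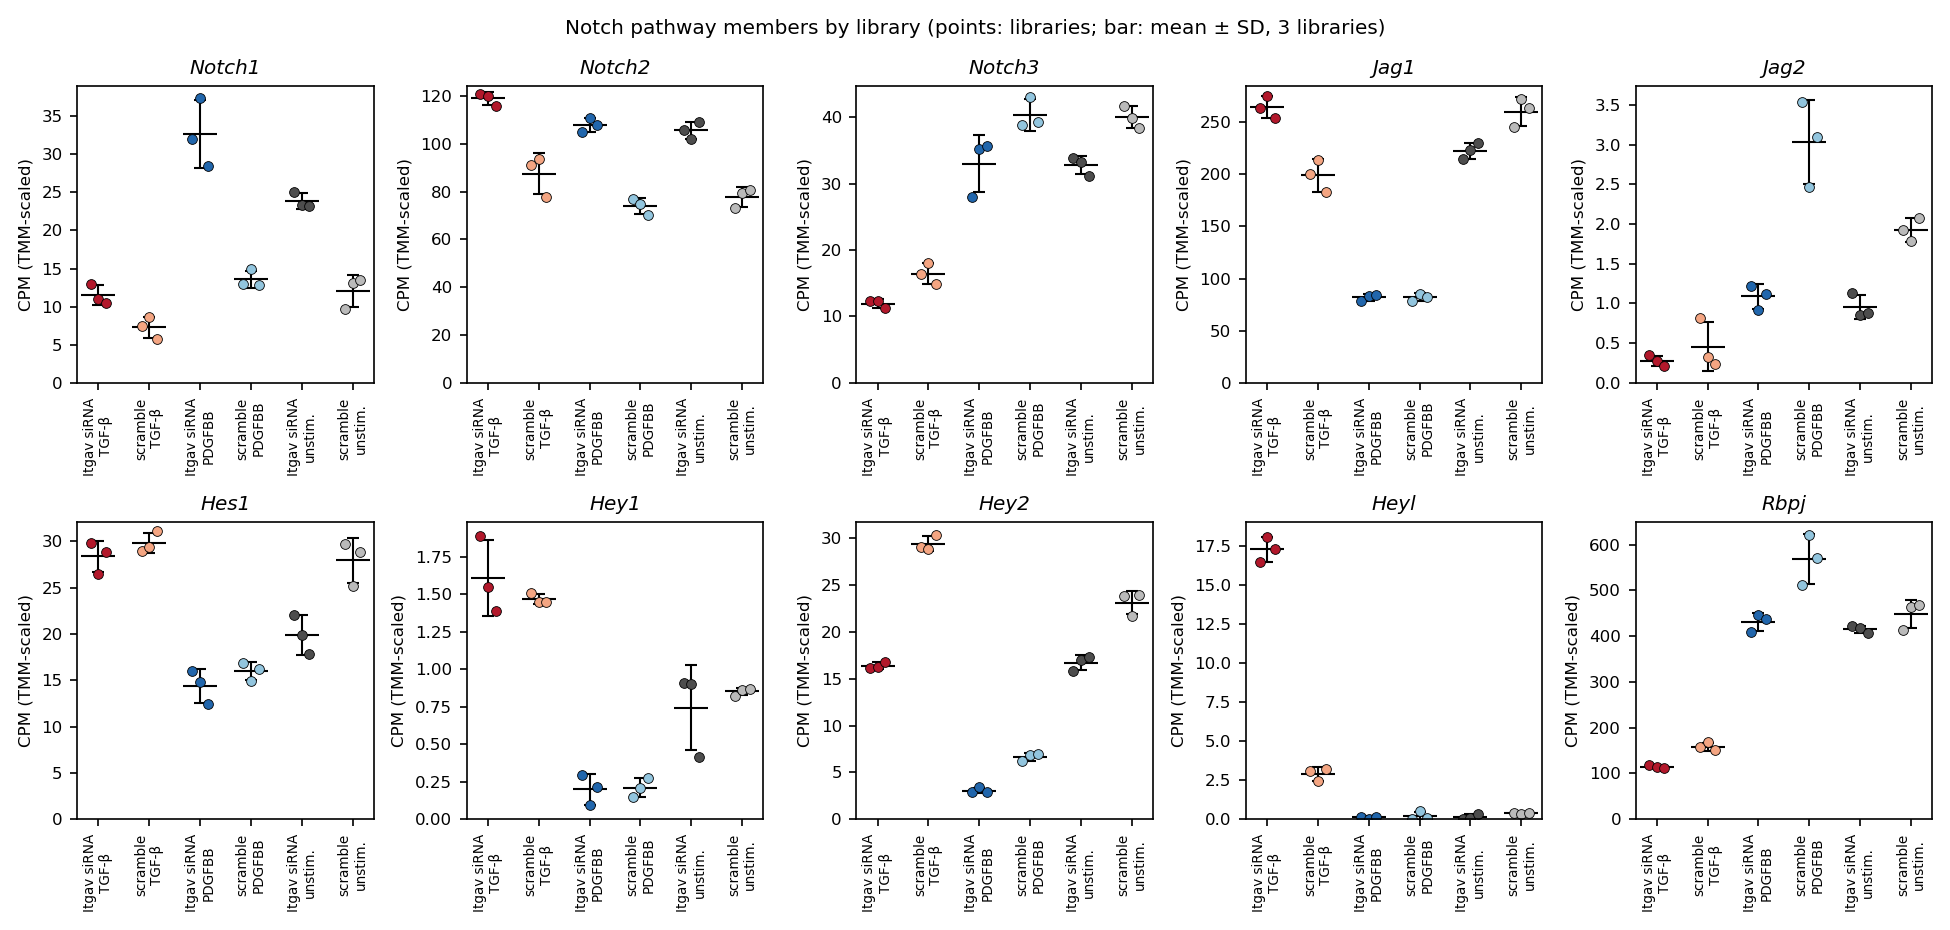
CPM of the 10 members in each of the 18 libraries, with 1 panel per gene, 6 groups along each x axis, and the mean ± SD of 3 libraries. Heyl stands at 16.5 to 18.1 CPM in siRNA cells with TGF-β and at most 3.24 CPM elsewhere, and Jag1, Hes1, Hey1 and Hey2 are lowest in the PDGFBB groups.

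**Figure D2:**
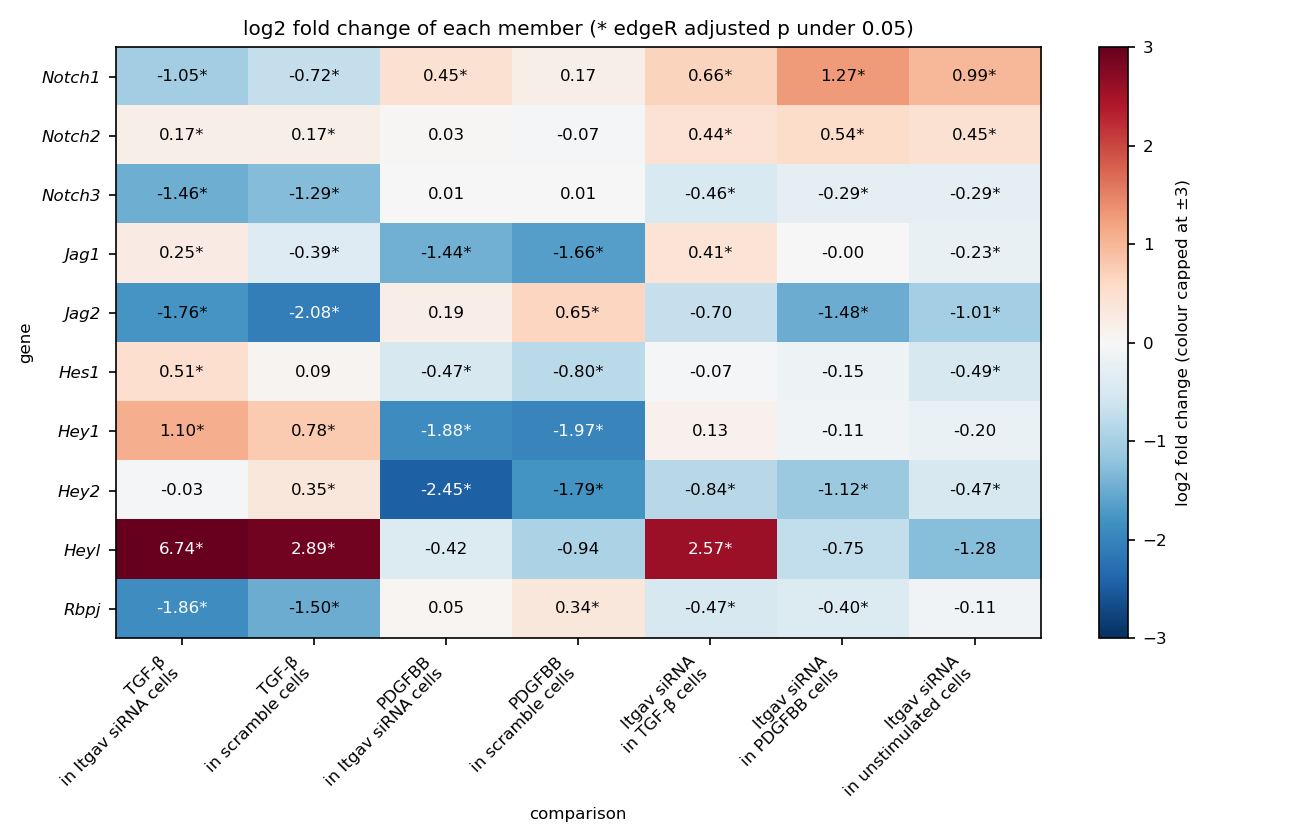
Log2 fold change of each member (rows) in 7 comparisons of treated with untreated or siRNA with scramble cells (columns), with an asterisk where the edgeR adjusted p was under 0.05. Rbpj lies between -1.86 and 0.34 and Heyl reaches 6.74 with TGF-β in siRNA cells, beyond the colour limit of 3. The Heyl values in the columns of TGF-β over unstimulated cells are a description, whatever their asterisks.

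Levels were compared between genes as TPM, counts divided by transcript length and scaled to the same total in each library. Rbpj led in siRNA cells with PDGFBB at 178 ± 9.86 TPM, in scramble cells with PDGFBB at 216 ± 23.6 TPM, in unstimulated siRNA cells at 165 ± 3.57 TPM and in unstimulated scramble cells at 169 ± 14.2 TPM (SD, n = 3 each). In both TGF-β groups Jag1 led instead, at 97 ± 5.21 TPM in siRNA cells and 70.9 ± 7.56 TPM in scramble cells, and Rbpj came next at 43.2 ± 1.87 and 58.4 ± 3.88 TPM. Hes1 was the third in all 6 groups, from 22.7 ± 2.79 TPM in siRNA cells with PDGFBB to 41.7 ± 0.631 TPM in scramble cells with TGF-β. In unstimulated scramble cells the order continued with Hey2 at 18.2 ± 0.866 TPM, Notch2 at 14.9 ± 1 TPM, Notch3 at 10.1 ± 0.492 TPM, Notch1 at 2.56 ± 0.473 TPM, Jag2 at 1.29 ± 0.0858 TPM, Hey1 at 0.769 ± 0.126 TPM and Heyl at 0.255 ± 0.136 TPM, and no neighbours in it overlapped between libraries. Neighbours that did overlap were Rbpj with Hes1 and Notch3 with Notch1 in siRNA cells with TGF-β, and Heyl with Hey1 in scramble cells with TGF-β. With PDGFBB, Hes1 overlapped Notch2 and Notch3 overlapped Notch1 in siRNA cells, and Hey1 overlapped Heyl in scramble cells. Hey1 overlapped Jag2 in unstimulated siRNA cells.

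The receptors moved in different directions: Notch1 and Notch2 rose with Itgav siRNA in every medium and Notch3 fell in every medium, while TGF-β lowered Notch1 and Notch3. Notch1 (ENSMUSG00000026923, chr2:26457903-26516663 of mm10, minus strand) encodes the receptor best studied in endothelial and blood cells. In siRNA cells it had 13, 11 and 10.5 CPM with TGF-β and 32, 37.4 and 28.5 CPM with PDGFBB, against 25.1, 23.3 and 23.2 CPM unstimulated. In scramble cells it had 7.43, 8.6 and 5.79 CPM with TGF-β and 13, 14.9 and 12.9 CPM with PDGFBB, against 9.67, 13.1 and 13.5 CPM unstimulated. Every siRNA library lay above every scramble library of its medium, and every TGF-β library below every unstimulated library of the same RNA. The siRNA raised Notch1 by 0.66 ± 0.15 on the log2 scale (SE, adjusted p = 0.00095) in TGF-β cells, by 1.27 ± 0.12 (adjusted p = 1.2e-08) in PDGFBB cells and by 0.99 ± 0.13 (adjusted p = 9.9e-07) in unstimulated cells. TGF-β changed it by -1.05 ± 0.13 (adjusted p = 3.7e-07) in siRNA cells and by -0.72 ± 0.15 (adjusted p = 3e-04) in scramble cells. PDGFBB raised it in siRNA cells by 0.45 ± 0.12 (adjusted p = 0.0039), and its value in scramble cells was 0.17 ± 0.13 (adjusted p = 0.34) with overlapping libraries. Notch1 shares its locus with the opposite-strand transcript 0610009E02Rik, which had 1268 counts over the 18 libraries against 5966 for Notch1, and whether the authors' counting used strand is not given in the sources used here.

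Notch2 (ENSMUSG00000027878, chr3:98013527-98150361, plus strand), a receptor of smooth muscle and kidney development, was the most abundant of the 3 member receptors per length. It had 121, 120 and 116 CPM in siRNA cells with TGF-β, against 91.2, 93.5 and 77.8 CPM in scramble cells with TGF-β. With PDGFBB it had 105, 111 and 108 CPM in siRNA cells, against 76.9, 74.9 and 70.2 CPM in scramble cells. Unstimulated, it had 106, 102 and 109 CPM in siRNA cells, against 73, 79.6 and 80.5 CPM in scramble cells. The siRNA and scramble libraries did not overlap in any medium. The siRNA raised Notch2 by 0.44 ± 0.059 (adjusted p = 1.6e-06), 0.54 ± 0.059 (adjusted p = 6.2e-08) and 0.45 ± 0.059 (adjusted p = 1.3e-06) on the log2 scale in TGF-β, PDGFBB and unstimulated cells. TGF-β raised it by 0.17 ± 0.058 in siRNA cells (adjusted p = 0.017) and by 0.17 ± 0.06 in scramble cells (adjusted p = 0.021), where the libraries overlapped. The call in scramble cells was lost without scramble unstimulated replicate 1 (0.13, adjusted p = 0.12) or scramble TGF-β replicate 1 (0.15, adjusted p = 0.08) or 2 (0.12, adjusted p = 0.13), and without scramble TGF-β replicate 3 the value was 0.26. The call in siRNA cells was lost without siRNA unstimulated replicate 2 (adjusted p = 0.087) or siRNA TGF-β replicate 1 (adjusted p = 0.064) or 2 (adjusted p = 0.056). PDGFBB gave 0.03 ± 0.058 (adjusted p = 0.77) in siRNA cells and -0.07 ± 0.06 (adjusted p = 0.39) in scramble cells.

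Notch3 (ENSMUSG00000038146, chr17:32120820-32166852, minus strand) encodes the receptor that marks mural cells of arteries. Cells with siRNA had 12.3, 12.3 and 11.2 CPM with TGF-β and 28, 35.2 and 35.7 CPM with PDGFBB, against 33.8, 33.3 and 31.2 CPM unstimulated. Scramble cells had 16.4, 18 and 14.8 CPM with TGF-β and 38.8, 43.1 and 39.2 CPM with PDGFBB, against 41.7, 39.8 and 38.4 CPM unstimulated. The TGF-β libraries were the lowest of both RNAs, and siRNA libraries lay below scramble libraries in each medium without overlap. TGF-β lowered Notch3 2.74-fold in siRNA cells (log2 -1.46 ± 0.093, adjusted p = 7.1e-12) and 2.44-fold in scramble cells (log2 -1.29 ± 0.088, adjusted p = 4e-11). The siRNA changed it by -0.46 ± 0.1 (adjusted p = 0.00062) in TGF-β cells, -0.29 ± 0.081 (adjusted p = 0.0035) in PDGFBB cells and -0.29 ± 0.081 (adjusted p = 0.0046) in unstimulated cells. The value in PDGFBB cells was -0.18 (adjusted p = 0.038) without siRNA PDGFBB replicate 1. PDGFBB gave 0.01 ± 0.082 (adjusted p = 0.95, 95% interval of the log2 fold change -0.16 to 0.18) in siRNA cells and 0.01 ± 0.079 (adjusted p = 0.92, interval -0.15 to 0.18) in scramble cells.

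Per length, Notch2 made up most of the summed Notch1, Notch2 and Notch3 level in all 6 groups. Its share was 78.4% ± 0.69 in siRNA cells and 72.7% ± 0.94 in scramble cells with TGF-β, 57.5% ± 1.7 and 51.6% ± 1.9 with PDGFBB, and 60.4% ± 1.5 and 53.9% ± 1.7 unstimulated (SD, n = 3 each). The Notch3 share was smallest, 11.6% ± 1.3, in siRNA cells with TGF-β and was 36.9% ± 3.1 in unstimulated scramble cells. The Notch1 share was largest, 19.5% ± 1.7, in siRNA cells with PDGFBB, against 10.6% ± 0.76 in scramble cells with PDGFBB. Notch4, which is not a member, was not counted in these shares. In siRNA cells with TGF-β it averaged 42.6 CPM, against 11.9 CPM for Notch3 and 11.5 CPM for Notch1, values not corrected for length. The shares are descriptions and were not tested.

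**Figure D3:**
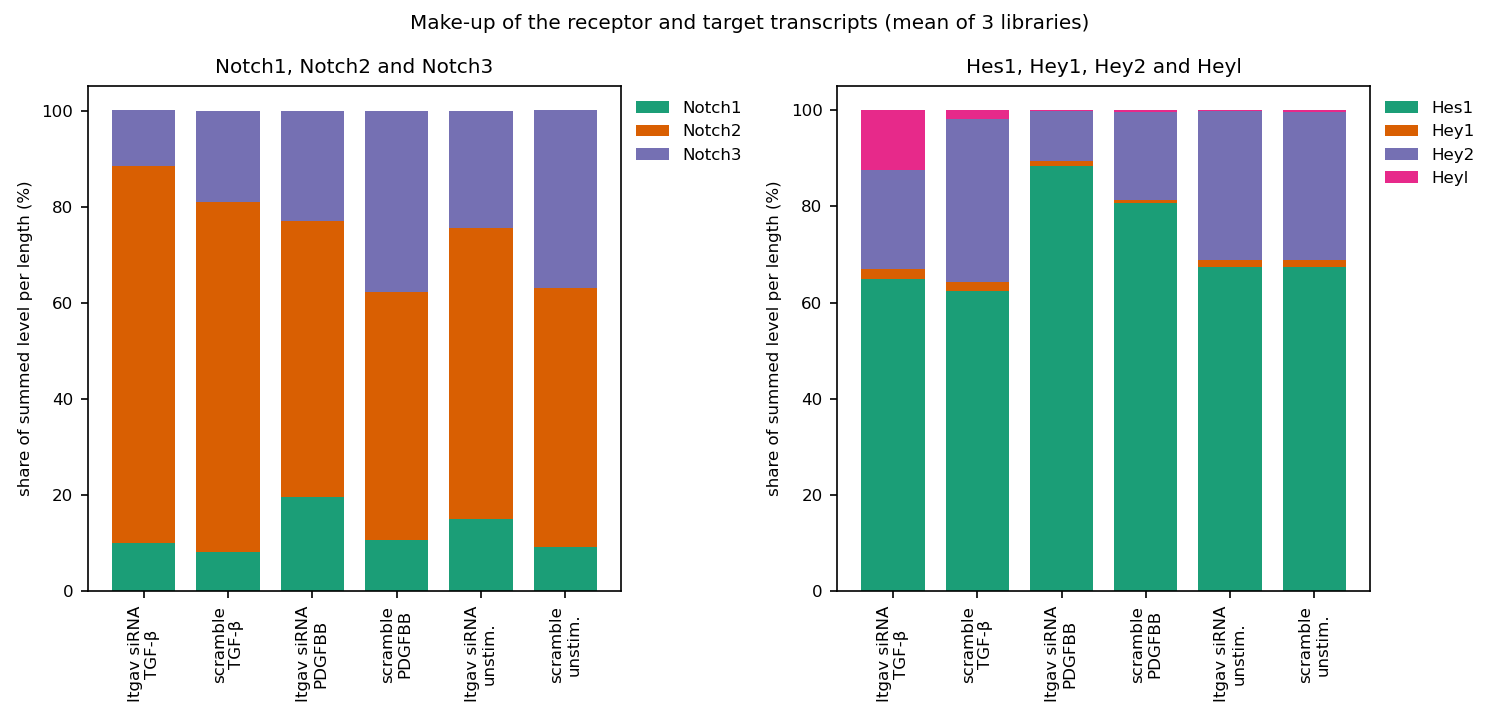
Mean share of each gene in the summed level per length of the 3 receptors (left) and the 4 HES and HEY targets (right), for the 6 groups along the x axis. Notch2 holds 51.6% to 78.4% of the level of these 3 receptors, in which Notch4 is not counted. Heyl holds 12.5% of the target level in siRNA cells with TGF-β and under 2% in the other groups.

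Jag1 fell with PDGFBB and Jag2 with TGF-β, in both RNAs. Jag1 (ENSMUSG00000027276, chr2:137081456-137116644, minus strand), encodes the main Jagged ligand of the vessel wall. In siRNA cells it had 264, 275 and 254 CPM with TGF-β and 78.5, 82.8 and 84.6 CPM with PDGFBB, against 215, 223 and 230 CPM unstimulated. In scramble cells it had 200, 214 and 183 CPM with TGF-β and 78.4, 85.6 and 82.5 CPM with PDGFBB, against 245, 272 and 264 CPM unstimulated. All 6 PDGFBB libraries lay at or under 85.6 CPM and the other 12 at or above 183 CPM. PDGFBB lowered Jag1 2.72-fold in siRNA cells (log2 -1.44 ± 0.057, adjusted p = 8e-15) and 3.17-fold in scramble cells (log2 -1.66 ± 0.057, adjusted p = 1.3e-15). TGF-β raised it in siRNA cells by 0.25 ± 0.055 on the log2 scale (adjusted p = 0.00049) and changed it by -0.39 ± 0.055 (adjusted p = 4e-06) in scramble cells. The siRNA raised it by 0.41 ± 0.055 (adjusted p = 1.8e-06) in TGF-β cells and changed it by -0.23 ± 0.055 (adjusted p = 0.0014) in unstimulated cells. In PDGFBB cells the siRNA value was -0.00 ± 0.058 (adjusted p = 0.96, interval -0.12 to 0.12).

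Jag2 (ENSMUSG00000002799, chr12:112907819-112929776, minus strand), the second Jagged ligand, was scarce, with 4 to 70 counts per library. Cells with siRNA had 0.343, 0.276 and 0.214 CPM with TGF-β and 1.22, 0.92 and 1.12 CPM with PDGFBB, against 1.13, 0.854 and 0.881 CPM unstimulated. Scramble cells had 0.812, 0.323 and 0.231 CPM with TGF-β and 3.53, 2.47 and 3.1 CPM with PDGFBB, against 1.92, 1.78 and 2.08 CPM unstimulated. The TGF-β libraries were lowest and the scramble PDGFBB libraries highest. TGF-β lowered Jag2 3.39-fold in siRNA cells (log2 -1.76 ± 0.4, adjusted p = 0.00068) and 4.21-fold in scramble cells (log2 -2.08 ± 0.33, adjusted p = 1.9e-05), the second value being -2.76 without scramble TGF-β replicate 1. The TGF-β libraries held 6, 5 and 4 counts in siRNA cells and 14, 6 and 4 in scramble cells. These fold changes thus rest on few counts, and Jag2 passed the filter through the other media. The siRNA changed it by -1.48 ± 0.27 (adjusted p = 7.6e-05) in PDGFBB cells and -1.01 ± 0.29 (adjusted p = 0.0054) in unstimulated cells, and its value in TGF-β cells was -0.70 ± 0.46 (adjusted p = 0.23) with overlapping libraries, and -0.02 without scramble TGF-β replicate 1. PDGFBB raised it in scramble cells by 0.65 ± 0.25 (adjusted p = 0.0497), a call that was lost on leaving out any of 5 of the 6 libraries (adjusted p 0.085 to 0.17, all but scramble PDGFBB replicate 2) and with DESeq2 (adjusted p = 0.065). In siRNA cells PDGFBB gave 0.19 ± 0.31 (adjusted p = 0.68).

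Rbpj (ENSMUSG00000039191, chr5:53466152-53657362, plus strand) encodes the factor through which all Notch receptors act on DNA, and its level fell with TGF-β in both RNAs. It had 118, 115 and 111 CPM in siRNA cells with TGF-β and 410, 446 and 437 CPM with PDGFBB, against 422, 417 and 407 CPM in unstimulated siRNA cells. In scramble cells it had 157, 168 and 151 CPM with TGF-β and 512, 621 and 572 CPM with PDGFBB, against 413, 463 and 468 CPM unstimulated. All 6 TGF-β libraries lay at or under 168 CPM and the other 12 at or above 407 CPM. TGF-β lowered Rbpj 3.63-fold in siRNA cells (log2 -1.86 ± 0.063, adjusted p = 8.7e-17) and 2.83-fold in scramble cells (log2 -1.50 ± 0.062, adjusted p = 6.2e-15). PDGFBB raised it in scramble cells by 0.34 ± 0.059 (adjusted p = 8.4e-05), and its value in siRNA cells was 0.05 ± 0.059 (adjusted p = 0.53). The siRNA changed it by -0.47 ± 0.063 (adjusted p = 1.8e-06) in TGF-β cells and by -0.40 ± 0.059 (adjusted p = 5e-06) in PDGFBB cells. In unstimulated cells the value was -0.11 ± 0.059 (adjusted p = 0.13), and it was called without scramble unstimulated replicate 1 (-0.16, adjusted p = 0.03).

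Most Rbpj counts were assigned to 2 protein-coding transcripts. ENSMUST00000113865 held 71% ± 20.1 of the gene's transcript counts in siRNA cells with TGF-β and 67.2% ± 4.15 in scramble cells with TGF-β, against 47.8% ± 4.92 and 49.6% ± 0.45 in unstimulated siRNA and scramble cells (SD, n = 3 each). ENSMUST00000087360 held 19.8% ± 16.6 in siRNA cells and 23.2% ± 4.91 in scramble cells with TGF-β, against 40.2% ± 3.76 and 38.9% ± 1.29 unstimulated. With PDGFBB the first held 51.1% ± 2.85 in siRNA cells and 37.4% ± 4.16 in scramble cells, and the second 30.3% ± 3.1 and 49.9% ± 6.73. The estimates of transcripts of one gene depend on each other, and they were not tested. The processed pseudogenes Rbpj-ps3 and Rbpj-ps1 had 2.48 and 0 counts over all libraries.

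RBPJ is known to bind the letters GTGGGAA or the shorter TGGGAA, and both were searched on both strands of RefSeq promoter windows (GRCm38.p6, 250 bases before to 50 after a gene's start, 300 bases in all), the shorter being contained in the longer. Of 32851 windows, 6.38% held GTGGGAA at least 1 time and 0.256% at least 2 times, and 25.6% held TGGGAA at least 1 time and 3.79% at least 2 times. For 7 of the 10 members a window was at hand. The target genes Hes1, Hey1 and Heyl had no window and were not searched. The RefSeq starts used for Rbpj and Notch1 lie far inside the gene spans given above, downstream of the first base of the annotated gene, so they are internal starts. Those of Jag1, Jag2, Hey2 and Notch2 also lie inside the annotated span but nearer its first base, and that of Notch3 lies before it. Hey2 held GTGGGAA 2 times, beginning 207 bases before the start on the opposite strand and 4 bases before the start on the gene's own strand. The second of these lies inside the annotated Hey2 gene. One of the 2 Rbpj windows held TGGGAA 2 times, 149 bases before the start on the gene's own strand and 65 bases before it on the opposite strand, and the other, overlapping window held 1. The windows of Jag1, Jag2, Notch1, Notch2 and Notch3 held neither set of letters. The stretches of Hey2 (chr10:30842774-30843033, minus strand) and Rbpj (chr5:53590096-53590355, plus strand) are shown because these were the members with matches among the 7 searched. They run 5′ to 3′ on the gene's strand from 250 bases before to 10 bases after the start, with matches in capitals. A match is a run of letters and no measure of binding.
Hey2: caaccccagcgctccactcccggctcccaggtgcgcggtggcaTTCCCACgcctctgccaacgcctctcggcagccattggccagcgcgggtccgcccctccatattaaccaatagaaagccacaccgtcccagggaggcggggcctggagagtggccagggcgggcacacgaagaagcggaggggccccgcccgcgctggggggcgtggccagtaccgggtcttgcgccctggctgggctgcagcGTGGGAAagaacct
Rbpj: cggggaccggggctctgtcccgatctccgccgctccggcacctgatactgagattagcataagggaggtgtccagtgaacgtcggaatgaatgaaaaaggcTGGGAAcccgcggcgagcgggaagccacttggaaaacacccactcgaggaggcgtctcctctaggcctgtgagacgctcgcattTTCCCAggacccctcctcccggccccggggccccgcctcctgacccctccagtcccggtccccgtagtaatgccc

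The 4 target genes had separate patterns: Hes1, Hey1 and Hey2 fell with PDGFBB, Hey2 fell with the siRNA in all 3 media, and Heyl was highest in TGF-β cells. Hes1 (ENSMUSG00000022528, chr16:30064384-30067796, plus strand) encodes the most widely expressed Notch-responsive repressor. Hes1 in siRNA cells stood at 29.8, 26.5 and 28.8 CPM with TGF-β and 16, 14.8 and 12.4 CPM with PDGFBB, against 22.1, 19.9 and 17.8 CPM unstimulated. Hes1 in scramble cells stood at 29, 29.4 and 31.1 CPM with TGF-β and 16.9, 14.9 and 16.2 CPM with PDGFBB, against 29.7, 25.2 and 28.9 CPM unstimulated. The PDGFBB libraries were the lowest of each RNA, and unstimulated siRNA libraries lay below unstimulated scramble libraries. PDGFBB changed Hes1 by -0.47 ± 0.096 on the log2 scale (adjusted p = 0.00052) in siRNA cells and by -0.80 ± 0.092 (adjusted p = 3.8e-07) in scramble cells. TGF-β raised it by 0.51 ± 0.091 (adjusted p = 5e-05) in siRNA cells and gave 0.09 ± 0.087 (adjusted p = 0.4) in scramble cells. The siRNA changed it by -0.49 ± 0.09 (adjusted p = 9.5e-05) in unstimulated cells, and gave -0.07 ± 0.088 (adjusted p = 0.54) in TGF-β cells and -0.15 ± 0.098 (adjusted p = 0.2) in PDGFBB cells, where the libraries overlapped.

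Hey1 (ENSMUSG00000040289, chr3:8663359-8667256, minus strand), a repressor of the Hairy-related family, was scarce, with 2 to 33 counts per library. Cells with siRNA had 1.89, 1.55 and 1.39 CPM with TGF-β and 0.293, 0.092 and 0.213 CPM with PDGFBB, against 0.912, 0.904 and 0.415 CPM unstimulated. Scramble cells had 1.51, 1.45 and 1.45 CPM with TGF-β and 0.151, 0.206 and 0.277 CPM with PDGFBB, against 0.825, 0.862 and 0.872 CPM unstimulated. The PDGFBB libraries were all at or under 0.293 CPM and the TGF-β libraries all at or above 1.39 CPM. PDGFBB lowered Hey1 3.68-fold in siRNA cells (log2 -1.88 ± 0.43, adjusted p = 0.0015) and 3.91-fold in scramble cells (log2 -1.97 ± 0.42, adjusted p = 0.00077). The PDGFBB libraries held 6, 2 and 4 counts in siRNA cells and 3, 4 and 6 in scramble cells, under the filter minimum of 10. Hey1 thus passed the filter through the other media, and in siRNA cells it did not pass when only the groups compared were fitted. TGF-β raised it in siRNA cells by 1.10 ± 0.33 (adjusted p = 0.0061) and in scramble cells by 0.78 ± 0.32 (adjusted p = 0.0499). The call in scramble cells was lost on leaving out any 1 of the 6 libraries compared (adjusted p 0.083 to 0.11) and with DESeq2 (adjusted p = 0.074). The siRNA was not called in any medium, with 0.13 ± 0.3 (adjusted p = 0.76) in TGF-β cells, -0.11 ± 0.53 (adjusted p = 0.87) in PDGFBB cells and -0.20 ± 0.34 (adjusted p = 0.66) in unstimulated cells.

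Hey2 (ENSMUSG00000019789, chr10:30832359-30842801, minus strand), a repressor needed for arterial development, was lower with PDGFBB and with the siRNA. In siRNA cells it had 16.1, 16.3 and 16.8 CPM with TGF-β and 2.88, 3.4 and 2.88 CPM with PDGFBB, against 15.8, 17 and 17.3 CPM unstimulated. In scramble cells it had 29.1, 28.8 and 30.3 CPM with TGF-β and 6.21, 6.85 and 6.94 CPM with PDGFBB, against 23.8, 21.7 and 23.9 CPM unstimulated. Every siRNA library lay below every scramble library of its medium, and every PDGFBB library below every other. PDGFBB lowered Hey2 5.45-fold in siRNA cells (log2 -2.45 ± 0.093, adjusted p = 4.2e-15) and 3.47-fold in scramble cells (log2 -1.79 ± 0.08, adjusted p = 8.5e-14). The siRNA changed it by -0.84 ± 0.072 (adjusted p = 1.9e-09) in TGF-β cells, -1.12 ± 0.1 (adjusted p = 5.5e-09) in PDGFBB cells and -0.47 ± 0.072 (adjusted p = 9.6e-06) in unstimulated cells. TGF-β gave -0.03 ± 0.075 (adjusted p = 0.77) in siRNA cells and raised it by 0.35 ± 0.069 (adjusted p = 0.00024) in scramble cells. Most smooth muscle markers moved the same way in the siRNA and PDGFBB comparisons. With the siRNA, 8 of 8, 7 of 8 and 6 of 8 were lower in TGF-β, PDGFBB and unstimulated cells. Over all genes these shares were 24.3%, 29.9% and 27.5%. With PDGFBB, 6 of 8 were lower and 1 higher in siRNA cells, and 7 lower and 1 higher in scramble cells. In each RNA, 19.2% of all genes were lower with PDGFBB. With TGF-β, 5 markers were higher and 3 lower in siRNA cells, where Hey2 was not called. In scramble cells 7 markers were higher with TGF-β and 1 lower, and Hey2 was higher. The part of these markers in the Hey2 result was not tested.

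Heyl (ENSMUSG00000032744, chr4:123233556-123249875, plus strand), a Hairy-related gene known from arterial smooth muscle, had most of its counts in TGF-β cells and was highest there with the siRNA. With TGF-β it had 16.5, 18.1 and 17.3 CPM in siRNA cells, against 3.08, 2.42 and 3.24 CPM in scramble cells. With PDGFBB it had 0.147, 0.046 and 0.16 CPM in siRNA cells, against 0, 0.515 and 0.0925 CPM in scramble cells. Unstimulated, it had 0, 0.1 and 0.363 CPM in siRNA cells, against 0.412, 0.355 and 0.387 CPM in scramble cells. Summed over 3 libraries this was 941 counts in siRNA cells and 154 counts in scramble cells with TGF-β, and 7 to 24 counts in each other group, so the levels outside TGF-β rest on few counts. The siRNA raised Heyl 5.95-fold in TGF-β cells (log2 2.57 ± 0.26, adjusted p = 2.8e-08), a comparison within TGF-β cells, and the gene also passed the filter with the siRNA TGF-β libraries left out. The fitted log2 difference between TGF-β and unstimulated cells was 6.74 ± 0.4 in siRNA cells and 2.89 ± 0.4 in scramble cells. The value in siRNA cells was 8.21 without siRNA unstimulated replicate 3. The siRNA gave -0.75 ± 0.87 (adjusted p = 0.47) in PDGFBB cells and -1.28 ± 0.71 (adjusted p = 0.14) in unstimulated cells, and the second was called without siRNA unstimulated replicate 3 (-2.75, adjusted p = 0.021). PDGFBB gave -0.42 ± 0.92 (adjusted p = 0.77) in siRNA cells and -0.94 ± 0.66 (adjusted p = 0.29) in scramble cells, and the second was called without scramble PDGFBB replicate 2 (-2.84, adjusted p = 0.011).

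Pericyte markers were examined beside Heyl. Their sum was 2060 to 2210 CPM in siRNA cells and 1130 to 1210 CPM in scramble cells with TGF-β, against 222 to 227 and 294 to 315 CPM unstimulated. Most of it was Rgs5, at a mean of 1820 CPM in siRNA cells and 810 CPM in scramble cells with TGF-β. With the siRNA in TGF-β cells, 24.1% of all genes were higher and 24.3% lower. Of the 4 markers, 1 was higher (Rgs5) and 1 lower (Cspg4, a mean of 295 CPM in siRNA cells and 362 CPM in scramble cells). The other 2 were not called: Abcc9 averaged 3.44 CPM in siRNA cells and 4.28 CPM in scramble cells, and Kcnj8 0.276 CPM in siRNA cells and 0.337 CPM in scramble cells. Their part in the Heyl result was not tested. Per length, Heyl held 12.5% ± 1 of the summed HES and HEY level in siRNA cells and 1.88% ± 0.24 in scramble cells with TGF-β (SD, n = 3 each). Hes1 held 65% ± 1.6 and 62.4% ± 0.39 there, and 88.5% ± 1.3 and 80.7% ± 1.9 in siRNA and scramble cells with PDGFBB.

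Whether the siRNA effect differed between media was tested as the difference of log2 fold changes. Between TGF-β and unstimulated cells, 3 members had a higher siRNA effect with TGF-β and 2 a lower one, where 23.2% of all genes were called, 12.2% higher and 11.0% lower. Without Heyl, 2 were higher and 2 lower. For Heyl the difference was 3.85 ± 0.75, a description because the gene passed the filter only through TGF-β libraries. The difference was 0.63 ± 0.077 for Jag1 (adjusted p = 2.5e-06) and 0.42 ± 0.13 for Hes1 (adjusted p = 0.02). It was -0.37 ± 0.1 for Hey2 (adjusted p = 0.0098) and -0.36 ± 0.086 for Rbpj (adjusted p = 0.0038). Jag1 was the member whose siRNA effect was called in opposite directions, higher in TGF-β cells and lower in unstimulated cells. Without siRNA unstimulated replicate 3 the Heyl difference was 5.31. The Hes1 call was lost on leaving out any 1 of 6 of the 12 libraries compared (values 0.33 to 0.39, adjusted p 0.052 to 0.08), namely scramble unstimulated replicates 1 and 3, siRNA unstimulated replicate 3, scramble TGF-β replicate 1 and siRNA TGF-β replicates 1 and 3.

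Between PDGFBB and unstimulated cells, no member had a higher siRNA effect with PDGFBB and 2 had a lower one, where 18.8% of all genes were called, 9.51% higher and 9.32% lower. The difference was -0.65 ± 0.13 for Hey2 (adjusted p = 0.001) and -0.29 ± 0.084 for Rbpj (adjusted p = 0.018). For Jag1 it was 0.22 ± 0.08 (adjusted p = 0.057) and for Hes1 0.34 ± 0.13 (adjusted p = 0.082). Jag1 was called without scramble unstimulated replicate 1 (adjusted p = 0.024), scramble PDGFBB replicate 2 (adjusted p = 0.042) or siRNA PDGFBB replicate 1 (adjusted p = 0.043). Hes1 was called without siRNA unstimulated replicate 1 (adjusted p = 0.048) or siRNA PDGFBB replicate 3 (adjusted p = 0.033). For Notch1, Notch2 and Notch3, no difference between media was called: with TGF-β it was -0.33 ± 0.2 (95% interval -0.74 to 0.08), -0.00 ± 0.083 (interval -0.18 to 0.17) and -0.17 ± 0.13 (interval -0.44 to 0.10), and with PDGFBB 0.28 ± 0.18 (interval -0.09 to 0.65), 0.10 ± 0.083 (interval -0.08 to 0.27) and -0.00 ± 0.11 (interval -0.24 to 0.23). For Jag2 the differences were 0.31 ± 0.57 with TGF-β and -0.47 ± 0.4 with PDGFBB, and for Hey1 0.32 ± 0.46 and 0.09 ± 0.66, none of them called.

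**Figure D4:**
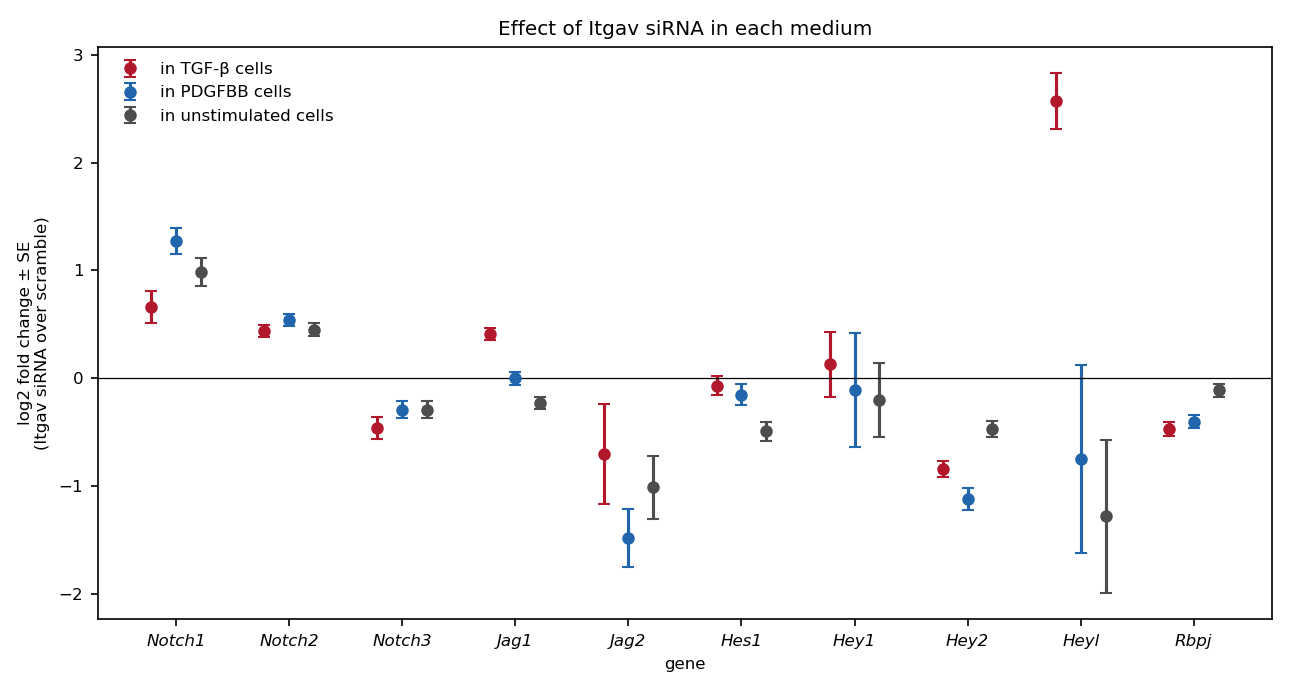
Log2 fold change of Itgav siRNA over scramble cells (y axis, ± SE from edgeR) for each member (x axis) in TGF-β, PDGFBB and unstimulated cells. Notch1 and Notch2 lie above 0 in all media, Notch3 and Hey2 below 0, and Heyl lies at 2.57 in TGF-β cells, with values of -0.75 in PDGFBB cells and -1.28 in unstimulated cells that have wide errors.

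Of 69 other genes of the pathway, 62 were tested. TGF-β raised 19 and lowered 17 of them in siRNA cells and raised 16 and lowered 15 in scramble cells. PDGFBB raised 10 and lowered 15 in siRNA cells and raised 7 and lowered 20 in scramble cells. The siRNA raised 24 and lowered 12 in TGF-β cells, raised 24 and lowered 15 in PDGFBB cells and raised 18 and lowered 15 in unstimulated cells. Their median log2 fold change lay between -0.06 and 0.11 in these 7 comparisons, beside -0.02 to 0.01 over all genes. Of all genes tested, 57.5% and 48.3% were called with TGF-β in siRNA and scramble cells, and 36.4% and 36.1% with PDGFBB. With the siRNA, 48.4%, 59.3% and 53.4% were called in TGF-β, PDGFBB and unstimulated cells. The counts of the shorter lists below are read against the same shares and were not tested.

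Among the other receptors and ligands, of which 7 of 9 were tested, Notch4, a receptor known mainly from endothelium, rose with TGF-β and, in TGF-β cells, with the siRNA. It averaged 42.6 CPM in siRNA cells and 12.1 CPM in scramble cells with TGF-β, against 1.99 and 2.31 CPM unstimulated. The siRNA raised Notch4 by 1.81 ± 0.13 (adjusted p = 7.7e-11) in TGF-β cells, and TGF-β raised it by 4.42 ± 0.16 (adjusted p = 3.5e-16) in siRNA cells and 2.41 ± 0.17 (adjusted p = 7.2e-11) in scramble cells. The siRNA effect on Notch4 was higher with TGF-β than unstimulated by 2.01 ± 0.26 (adjusted p = 4.7e-06). PDGFBB also raised Notch4, by 1.30 ± 0.2 in siRNA cells and 0.89 ± 0.19 in scramble cells. Over all genes with TGF-β, 27.9% were higher and 29.6% lower in siRNA cells, and 23.4% and 24.8% in scramble cells. Of 11 endothelial markers, with TGF-β 3 were higher and 5 lower in siRNA cells, and 1 was higher and 5 lower in scramble cells. The 1 higher in scramble cells was Erg, an endothelial transcription factor, at a mean of 46.4 CPM in siRNA cells and 45.4 CPM in scramble cells with TGF-β, against 6.03 and 7.01 CPM unstimulated, and the part of these markers in the Notch4 result was not tested. The Delta ligand Dll1 rose with the siRNA in all media, by 2.48 ± 0.35 (adjusted p = 3.6e-06) in TGF-β cells, 1.85 ± 0.35 (adjusted p = 0.00011) in PDGFBB cells and 1.26 ± 0.32 (adjusted p = 0.002) in unstimulated cells, with means of 1.8 to 2.75 CPM in siRNA cells and 0.487 to 0.859 CPM in scramble cells. Mfap2, a microfibril protein, rose with the siRNA by 1.64 ± 0.27 in TGF-β cells and 0.84 ± 0.27 in PDGFBB cells and with TGF-β by 1.43 ± 0.26 in siRNA cells. Its relative Mfap5 fell with the siRNA in PDGFBB cells (-0.86 ± 0.065) and unstimulated cells (-0.55 ± 0.058), fell with PDGFBB (-1.29 ± 0.064 in siRNA cells, -0.98 ± 0.059 in scramble cells) and rose with TGF-β in siRNA cells (0.62 ± 0.058). Dlk2 fell with TGF-β in scramble cells by 1.40 on the log2 scale (adjusted p = 0.038), to a mean of 0.281 CPM, against 0.752 CPM unstimulated. This fall rests on few counts.

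Receptor glycosylation is carried out by enzymes of which all 9 listed were tested. TGF-β raised 3 and lowered 0 in both siRNA and scramble cells: Gxylt2, a xylosyltransferase, by 2.59 ± 0.099 and 2.74 ± 0.099, Eogt by 0.48 ± 0.051 and 0.48 ± 0.049, and Poglut1 by 0.21 ± 0.041 and 0.19 ± 0.041. Gxylt2 averaged 345 CPM in siRNA cells and 411 CPM in scramble cells with TGF-β, against 57.1 and 61.6 CPM unstimulated. PDGFBB raised 1 and lowered 2 in siRNA cells, and raised 1 and lowered 3 in scramble cells. Pofut1, the fucosyltransferase that modifies Notch, fell by 0.32 and 0.23 there, and in siRNA cells Gxylt1 rose by 0.50 ± 0.091 and Lfng, the Fringe modifier, had -0.61 ± 0.22 (adjusted p = 0.037). In scramble cells PDGFBB also lowered Gxylt2 (-0.51 ± 0.1) and Eogt (-0.23 ± 0.05). The siRNA raised 3 and lowered 3 in TGF-β and in PDGFBB cells and raised 1 and lowered 2 in unstimulated cells. Eogt fell in all 3 (-0.35 ± 0.049, -0.24 ± 0.051 and -0.35 ± 0.051 in TGF-β, PDGFBB and unstimulated cells). Xxylt1 had -0.42 ± 0.064 in TGF-β and -0.36 ± 0.063 in unstimulated cells, and Poglut1 0.17 ± 0.041 and 0.15 ± 0.041. In PDGFBB cells Lfng fell by 0.95 and Gxylt2 rose by 0.42 ± 0.1.

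The sheddases and γ-secretase parts were all tested, 10 of 10, and the siRNA changed members of the same complex in opposite directions. Ncstn, which encodes the γ-secretase subunit nicastrin, rose by 0.92 ± 0.055 (adjusted p = 6.5e-12) in TGF-β cells, 1.31 ± 0.056 (adjusted p = 1.4e-14) in PDGFBB cells and 1.09 ± 0.056 (adjusted p = 4e-13) in unstimulated cells. Aph1a, another subunit, fell by 0.44, 0.80 and 0.58 on the log2 scale in the same order. The sheddase Adam17 fell by 0.96 in TGF-β and by 0.72 in unstimulated cells, and Adam10, the main Notch sheddase, rose by 0.58 ± 0.061 in PDGFBB cells. Over the list the siRNA raised 4 and lowered 3 in TGF-β cells, raised 3 and lowered 2 in PDGFBB cells, and raised 2 and lowered 4 in unstimulated cells. TGF-β raised 3 and lowered 2 in siRNA cells and in scramble cells: Furin, the protease that matures Notch, rose by 1.33 ± 0.051 and 0.82 ± 0.051, Adam10 by 0.41 ± 0.061 and 0.36 ± 0.061, and Ncstn by 0.49 ± 0.057 in scramble cells, while Psen2 had -0.60 ± 0.092 in siRNA cells. PDGFBB raised 2 and lowered 4 in siRNA cells, with Aph1b at -0.59 ± 0.078, Adam17 at 0.39 ± 0.062 and Ncstn at 0.31 ± 0.054. It raised 0 and lowered 5 in scramble cells, with Adam10 at -0.39 ± 0.061, Adam17 at -0.27 ± 0.06 and Aph1c at -1.09 ± 0.3.

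Of 16 genes of endocytosis and ubiquitin control, TGF-β raised 5 and lowered 7 in siRNA cells and raised 5 and lowered 6 in scramble cells. Neurl3, Neurl1b and Dtx4, ubiquitin ligases of the Neuralized and Deltex families, had -3.14 ± 0.46, -1.68 ± 0.18 and -1.16 ± 0.11 in scramble cells, and Dtx4 had -1.25 ± 0.11 and Itch 0.53 ± 0.047 in siRNA cells. Neurl3 averaged only 0.247 CPM in scramble cells with TGF-β, against 2.22 CPM unstimulated, so its value rests on few counts. The siRNA raised 5 and lowered 1 in TGF-β cells and in PDGFBB cells, and raised 6 and lowered 2 in unstimulated cells. Dtx3l, a Deltex relative known as an interferon-inducible gene, rose by 1.06 ± 0.16, 2.74 ± 0.15 and 2.54 ± 0.14 in TGF-β, PDGFBB and unstimulated cells, in the same libraries in which all 25 interferon genes were higher. It fell with TGF-β in siRNA cells by 1.89, where 25 of 25 interferon genes fell. The part of the interferon response in the Dtx3l result was not tested. Neurl1b rose with the siRNA in the 3 media by 0.89 ± 0.2, 1.03 ± 0.15 and 0.66 ± 0.15. Neurl2 had -1.08 ± 0.21 in TGF-β cells, Mib1 0.26 ± 0.064 in PDGFBB cells and Numbl 0.42 ± 0.07 in unstimulated cells. PDGFBB raised 2 and lowered 4 in siRNA cells (Numbl -0.57 ± 0.07, Neurl1a 0.83 ± 0.17, Aak1 0.24 ± 0.074) and raised 1 and lowered 6 in scramble cells (Neurl1a 0.98 ± 0.17, Itch -0.23 ± 0.047, Numb -0.30 ± 0.07).

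Of 16 nuclear cofactors, the siRNA raised 6 and lowered 4 in TGF-β cells, raised 9 and lowered 5 in PDGFBB cells and raised 7 and lowered 3 in unstimulated cells. Cir1, an RBPJ corepressor, rose by 0.39 ± 0.056, 0.67 ± 0.054 and 0.60 ± 0.054 in these media, and the corepressor gene Ctbp2 had -0.48 ± 0.068 in TGF-β and -0.44 ± 0.069 in unstimulated cells. The acetyltransferase gene Kat2b had -0.30 ± 0.055 in TGF-β cells and 0.51 ± 0.053 in PDGFBB cells, where Ncor1 had 0.46 ± 0.059, and Hdac1 had -0.28 ± 0.048 in unstimulated cells. TGF-β raised 3 and lowered 6 in siRNA cells (Kat2b -1.06 ± 0.054, Kat2a -0.56 ± 0.08) and raised 3 and lowered 4 in scramble cells (Kat2b -0.63 ± 0.053, Snw1 -0.21 ± 0.05). PDGFBB raised 2 and lowered 4 in siRNA cells and raised 2 and lowered 5 in scramble cells. The Mastermind gene Maml2 fell in both (-0.51 ± 0.068 and -0.49 ± 0.067), as did Kat2b (-0.29 ± 0.052 and -0.67 ± 0.053), with Ctbp1 at -0.28 ± 0.055 in siRNA cells and Kat2a at 0.30 ± 0.077 in scramble cells.

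Of 9 other HES-family genes and feedback targets, 4 passed the filter. Nrarp, which encodes a feedback inhibitor of Notch, fell with TGF-β (-2.79 ± 0.52 in siRNA cells, -2.17 ± 0.36 in scramble cells) and with the siRNA (-1.99 ± 0.58, -1.32 ± 0.32 and -1.37 ± 0.32 in TGF-β, PDGFBB and unstimulated cells). It averaged 0.187 CPM in siRNA cells and 0.756 CPM in scramble cells with TGF-β, against 1.31 and 3.4 CPM unstimulated. The Nrarp values that involve TGF-β cells thus rest on few counts. Bhlhe40, a related repressor that also answers to hypoxia and clock signals, rose in all 7 comparisons, from 0.40 ± 0.091 with PDGFBB in scramble cells to 2.35 ± 0.073 with TGF-β in siRNA cells. Its relative Bhlhe41 rose with the siRNA in TGF-β cells by 0.97 ± 0.059 and in PDGFBB cells by 0.30 ± 0.058, and had -0.19 ± 0.059 in unstimulated cells. Bhlhe41 rose in siRNA cells with TGF-β (0.94 ± 0.058) and PDGFBB (0.42 ± 0.059) and had -0.21 ± 0.06 with TGF-β in scramble cells. Hes6 had -0.76 ± 0.1 with the siRNA in PDGFBB cells and 0.25 ± 0.098 (adjusted p = 0.049) with PDGFBB in scramble cells. Over the list, the siRNA raised 2 and lowered 1, 2 and 2, and 1 and 3 in TGF-β, PDGFBB and unstimulated cells.

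Likeness of pattern was described by the Pearson correlation of log2 CPM over the 18 libraries, which fall into 6 groups and so hold far fewer independent points. Genes averaging under 5 CPM were left out as partners. Among the members so limited, Rbpj and Notch3 were most alike, at a correlation of 0.98 with each other. Jag2 was most like Notch3 (0.90) and Notch1 most like Rbpj (0.56). Hes1 was most like Hey2 and Hey2 most like Hes1 (0.89 in both), and Jag1 most like Hey2 (0.88). Hey1, under 5 CPM and so not a candidate partner itself, was most like Hes1 (0.91). Heyl was most like Hes1, at 0.67, and Notch2 most like Notch1, at 0.44. Among 10899 other genes, the most similar were Clca3a1 for Rbpj and Stxbp6 for Notch3 and Scel for Hey2 (0.99 each), Enpep for Notch1, Rbms3 for Jag1 and Gosr2 for Heyl (0.98 each), Tmem260 for Notch2, Rpa1 for Jag2 and Tdrd3 for Hes1 (0.97 each), and Pcsk5 for Hey1 (0.96). Each of these is the highest of 10899 correlations, a choice that by itself favours high values. Heyl had 7 to 24 summed counts in each group outside TGF-β, so its correlations rest largely on the TGF-β libraries.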

How the data were processed

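The deposited gene and transcript tables hold expected counts, made by the authors from reads of total RNA, and HISAT2 2.2.1, StringTie 2.1.6 and the mm10 build are named in the submitters' processing notes. Of the deposited gene values, 76.2% were whole. Counts were rounded to whole numbers, scaled by TMM (factors 0.925 to 1.07) and filtered with filterByExpr (minimum count 10), and all 18 libraries entered 1 quasi-likelihood fit in edgeR 4.0.16 (R 4.3.3) with 1 mean per group. CPM values use the scaled totals of the tested genes. Benjamini-Hochberg adjustment ran over 15832 genes, and calls were made at an adjusted p under 0.05. Depth was 17705072 to 21592916 counts per library. The biological coefficient of variation of expression, estimated by edgeR, was 6.01%. TPM values were computed from deposited transcript counts and GENCODE M21 lengths, and gene positions come from that annotation. The annotation held 92% of the transcript identifiers, with at least 98.6% of each library's counts.

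The labels number the libraries 1 to 3 in each group but do not say what a number marks, so the numbers were not used as pairs. Deviations of same-numbered libraries correlated at -0.09 to 0.1 over 45 comparisons. The members and gene lists were chosen with earlier results of these data known. Named genes were the 10 members, Itgav, up to 3 called genes with the smallest p per pathway list and comparison, and for each member the most similar gene with a mean of at least 5 CPM. One gene that this rule names is not reported here. Marker genes, and the numbers of members of each list that rose or fell, were described with no list test. Alternatives were DESeq2 1.42.0 and its size factors, no filter, a mean of at least 1 CPM, summed transcript counts, a replicate block, a fit of the compared groups alone, and each library left out in turn.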

Additional observations from a re-analysis of the deposited data

Results flagged for a closer look

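The siRNA effect differed between media, by the test of the difference itself in edgeR, for 4 members and, as a description only, Heyl between TGF-β and unstimulated cells, and for 2 of the 4 also between PDGFBB and unstimulated cells. Differences are on the log2 scale, the effect in the growth factor minus the effect in unstimulated cells.

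With TGF-β the difference was 3.85 for Heyl, whose siRNA effect was 2.57 in TGF-β cells and -1.28 in unstimulated cells. Heyl passed the filter on low counts only through TGF-β libraries, so its difference is a description. Jag1 differed by 0.63, with effects of 0.41 and -0.23. A difference of 0.42 was found for Hes1, with effects of -0.07 and -0.49. Hey2 differed by -0.37, with effects of -0.84 and -0.47. For Rbpj it was -0.36, with effects of -0.47 and -0.11.

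With PDGFBB the difference was -0.65 for Hey2, whose siRNA effect was -1.12 in PDGFBB cells and -0.47 in unstimulated cells. Rbpj differed by -0.29, with effects of -0.40 and -0.11. All 7 differences share the unstimulated groups.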

How the results depend on the processing

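The counts of all genes and of members called stayed within 1.5 times the reported value in all 258 alternatives run. Of the members' log2 fold changes, 1194 alternative values kept direction and side of the threshold, 29 lost a call, 13 gained one and 37 changed sign. The sign changes were all of values that were not called. With other settings, Jag1 with the siRNA in PDGFBB cells was 0.01 with a mean of at least 1 CPM, Notch3 with PDGFBB in siRNA cells was -0.00 without a filter, and the Notch2 difference with TGF-β and the Notch3 difference with PDGFBB were 0.00 with DESeq2 and with its size factors. On leaving out a library, Jag1 with the siRNA in PDGFBB cells ranged from -0.04 to 0.03, Notch2 and Notch3 with PDGFBB in siRNA cells from -0.00 to 0.05 and from -0.05 to 0.11, and Notch3 with PDGFBB in scramble cells from -0.04 to 0.04. The difference with TGF-β ranged from -0.09 to 0.04 for Notch2 and from -0.00 to 0.99 for Jag2. The difference with PDGFBB ranged from -0.07 to 0.10 for Notch3, from -0.31 to 0.44 for Hey1 and from -0.03 to 2.42 for Heyl. Hey1 with the siRNA ranged from -0.01 to 0.22, from -0.50 to 0.25 and from -0.36 to 0.10 in TGF-β, PDGFBB and unstimulated cells. Heyl ranged from -1.31 to 1.15 with the siRNA in PDGFBB cells and from -0.96 to 1.05 with PDGFBB in siRNA cells. The cause was not tested.

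Besides the calls named in the report, Hey1 with TGF-β and Jag2 with PDGFBB in scramble cells were lost without a filter (adjusted p = 0.15 and 0.1), and Notch2 with TGF-β in scramble cells when only the groups compared were fitted (adjusted p = 0.051). DESeq2 called Heyl with the siRNA in unstimulated cells (adjusted p = 0.0497) and the Jag1 difference with PDGFBB (adjusted p = 0.038). That Jag1 difference was also called without a filter (adjusted p = 0.044) and when only the groups compared were fitted (adjusted p = 0.043).

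With the replicate number as a block, the genes called were 7783 against the reported 7662, 9513 against 9394 and 8582 against 8457 for the siRNA in TGF-β, PDGFBB and unstimulated cells. TGF-β gave 9217 against 9101 in siRNA cells and 7779 against 7639 in scramble cells, PDGFBB 5944 against 5766 and 5909 against 5714, and the differences 3893 against 3678 with TGF-β and 3349 against 2981 with PDGFBB. Among members the block lost the Hey1 call with TGF-β in scramble cells (adjusted p = 0.061) and gained the Jag1 difference with PDGFBB (adjusted p = 0.028). No correlation of same-numbered libraries exceeded 0.1, but with 3 libraries per group this check cannot show whether they shared a culture, animal or day. Depth limits Heyl outside TGF-β, Hey1 and Jag2, which rest on 0 to 70 counts per library. Hey1 was not tested with a mean of at least 1 CPM.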
